A study of Mus musculus with 10 samples.

Results

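The genes that turn arginine over were followed in the mouse distal colorectum: the arginases Arg1 and Arg2, the inducible nitric oxide synthase Nos2, the citrulline-recycling enzymes Ass1 and Asl, and ornithine decarboxylase, Odc1. They were found as every probe set whose platform gene symbol is one of these names, which gave 10 of the 45101 probe sets and 6 of 18193 genes. They were chosen by the irradiation differences of these same arrays, in which Arg1 stood at the top, so their irradiation values are given as a description without a test. The tissue was cut roughly 1 cm above the anus of C57BL/6J mice. The groups were irradiated Pdgfc-/- (knockout) mice (n = 3), irradiated Pdgfc+/+ (wild-type) mice (n = 3), unirradiated Pdgfc-/- mice (n = 2) and unirradiated Pdgfc+/+ mice (n = 2). Irradiated mice received 25 Gy of γ-rays locally, at 2.14 Gy/min, under anaesthesia with 5% chloral hydrate, and irradiated and unirradiated tissue was taken at 8 weeks. The labels state neither the animals' age nor whether unirradiated mice were anaesthetised, and no cell-type restriction of the Pdgfc deletion is given. One array was run per sample, and values are log2 MAS5 signals, on which 1 unit is a 2-fold difference.

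Arginine is the shared substrate of enzymes that compete for it. Arginases split it into urea and ornithine: Arg1 is the cytosolic arginase of liver, and also of alternatively activated mouse macrophages and of skin keratinocytes, and Arg2 is the mitochondrial form found in many tissues. Nos2 makes nitric oxide and citrulline from the same amino acid in inflammation, Ass1 and Asl rebuild arginine from citrulline, and Odc1 turns ornithine into putrescine, the entry to the polyamines.

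Array medians ran from 6.64 to 7.18. Pdgfc, the deleted gene, averaged 6.84 in irradiated knockout, 8.66 in irradiated wild type, 6.02 in unirradiated knockout and 7.25 in unirradiated wild type on its brighter probe set, and its other probe set gave the same order within each irradiation state. Of 9 colonocyte markers, 8 or 9 lay above the array median on every array, so colonocyte transcripts were present on each. That does not show the same tissue make-up in all groups: squamous and striated muscle markers differed between them, as given below. Transcripts of the X and Y chromosomes showed a female pattern on 4 arrays, those of the 3 irradiated wild-type mice and of irradiated knockout replicate 1, and a male pattern on the other 6. Sex and irradiation therefore cannot be told apart among the wild-type arrays alone. The log2 difference between the 3′ and 5′ Gapdh control probe sets also moved with irradiation, at -0.54 to -0.35 on irradiated and -0.32 to 0.02 on unirradiated arrays. In bulk tissue, fewer cells of a type and less RNA per cell cannot be told apart. The labels call the replicates biological, and their number limits the precision of every value.

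Arg1 was measured by 1 probe set, 1419549_at. In irradiated knockout its signal was 13.90, 12.11 and 12.47, and in irradiated wild type 11.14, 14.48 and 13.50. In unirradiated knockout it was 1.73 and 1.72, and in unirradiated wild type 0.55 and 2.56. The 6 irradiated arrays were all far above their own medians and the 4 unirradiated arrays all far below theirs, with no overlap, a separation that 25.4% of all genes tested showed in one direction or the other. The group means were 12.83 ± 0.95 (SD, n = 3) in irradiated knockout, 13.04 ± 1.72 (SD, n = 3) in irradiated wild type, 1.72 ± 0.01 (SD, n = 2) in unirradiated knockout and 1.55 ± 1.42 (SD, n = 2) in unirradiated wild type. As deposited, the irradiated minus unirradiated difference was 11.10 ± 0.93 (SE) in knockout and 11.49 ± 0.93 (SE) in wild type. MAS5 spreads dim signals widely and the unirradiated signals lay over 5 units under the array median on average, so these differences carry no exact size. Measured from the median of the unirradiated arrays instead of from Arg1's own signal there, the irradiated means were 60.6-fold higher in knockout and 80.2-fold higher in wild type.

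Arg2 moved less, and its groups came close to each other. Its brighter probe set, 1418847_at, gave 8.04, 6.63 and 7.98 in irradiated knockout and 8.32, 7.97 and 6.78 in irradiated wild type. It gave 5.61 and 5.44 in unirradiated knockout, and 6.76 and 5.53 in unirradiated wild type. Irradiated arrays stood above unirradiated arrays within each genotype, where 54.0% of genes in knockout and 53.6% in wild type did not overlap, while over all 10 arrays the lowest irradiated value, of a knockout, lay under the highest unirradiated value, of a wild type. The differences were 2.02 ± 0.60 (SE) in knockout and 1.55 ± 0.60 (SE) in wild type. The second probe set, 1438841_s_at, lay above the array median on 1 array of the 10 and differed by 3.93 in knockout and 4.15 in wild type, from unirradiated values of -0.03 to 5.06. Both probe sets ran the same way, with sizes that depend on how dim the unirradiated signal was. Without unirradiated wild-type replicate 2 the wild-type difference of 1418847_at was 0.93, and without unirradiated wild-type replicate 1 it was 2.17.

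Nos2, the enzyme that competes with the arginases in inflamed tissue, stayed under the array median on all 10 arrays and did not enter the test. Probe set 1420393_at gave 2.93, 5.88 and 3.62 in irradiated knockout, 1.76, 2.87 and 3.59 in irradiated wild type, 3.03 and 2.54 in unirradiated knockout, and 6.40 and 3.94 in unirradiated wild type. The knockout groups overlapped, while the irradiated wild-type values all lay under the unirradiated wild-type ones, as groups did not overlap for 53.6% of the genes tested in wild type. In a fit without the filter on dim genes the irradiation difference was 1.36 ± 1.07 (SE; 95% interval -1.01 to 3.74) in knockout and -2.43 ± 1.07 (SE; 95% interval -4.80 to -0.05) in wild type. All of these signals lay under the array median, where the size of a MAS5 difference is uncertain.

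**Figure D1:**
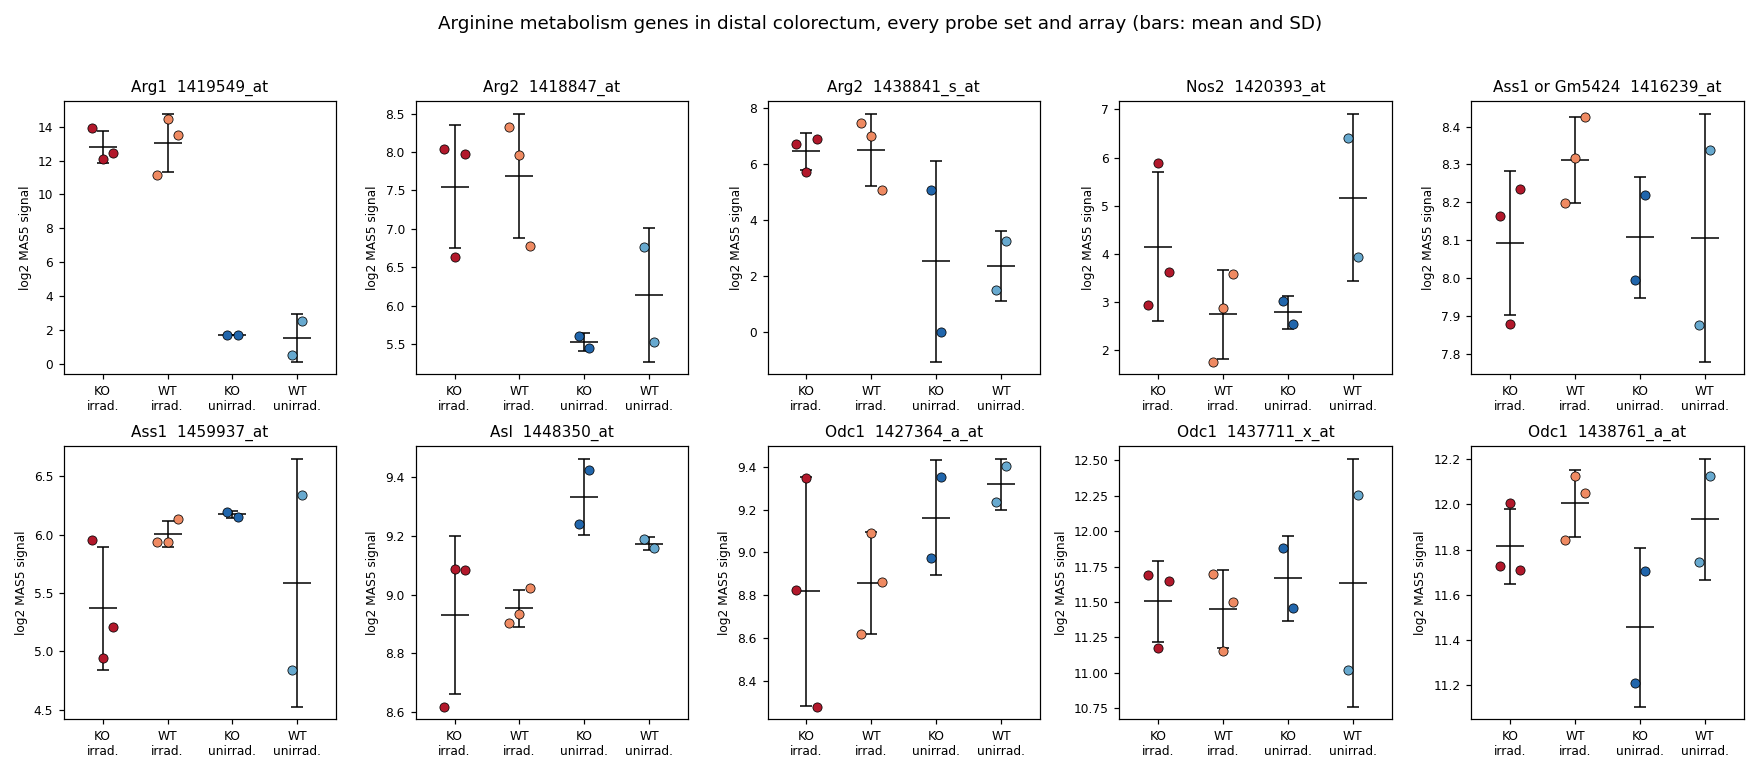
Log2 MAS5 signal (vertical axes, each with its own range) of the 10 probe sets on every array, with groups along the horizontal axes: irradiated knockout, irradiated wild type, unirradiated knockout and unirradiated wild type. Points are arrays, and bars give the mean and SD (n = 3, 3, 2 and 2). Arg1 separates 6 irradiated from 4 unirradiated arrays by a wide gap, while Asl, Ass1 and Odc1 span less than 1 unit between group means.

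Of the citrulline-recycling enzymes, Asl, which releases arginine from argininosuccinate, was bright on every array. Probe set 1448350_at gave 8.62, 9.09 and 9.08 in irradiated knockout, 8.90, 8.93 and 9.02 in irradiated wild type, 9.24 and 9.42 in unirradiated knockout, and 9.19 and 9.16 in unirradiated wild type. All irradiated values lay under all unirradiated ones, one of the 25.4% of genes without overlap. The differences were small, at -0.40 ± 0.18 (SE) in knockout and -0.22 ± 0.18 (SE) in wild type. Ass1, which joins citrulline to aspartate, has 1 probe set of its own, 1459937_at, which lay under the array median on all 10 arrays and was not tested. Its means were 5.37 ± 0.53 (SD, n = 3) in irradiated knockout, 6.00 ± 0.11 (SD, n = 3) in irradiated wild type, 6.17 ± 0.03 (SD, n = 2) in unirradiated knockout and 5.59 ± 1.06 (SD, n = 2) in unirradiated wild type. A brighter probe set, 1416239_at, is annotated to both Ass1 and Gm5424, whose transcripts it cannot tell apart, and averaged 8.09 in irradiated knockout, 8.31 in irradiated wild type, 8.11 in unirradiated knockout and 8.11 in unirradiated wild type. The irradiated and unirradiated arrays overlapped on both probe sets.

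Odc1, the first enzyme of polyamine synthesis, was bright on all 3 of its probe sets, and these did not run the same way. The brightest, 1438761_a_at, gave 11.73, 12.01 and 11.71 in irradiated knockout, 11.84, 12.13 and 12.05 in irradiated wild type, 11.21 and 11.70 in unirradiated knockout, and 11.74 and 12.12 in unirradiated wild type. Irradiated minus unirradiated, it differed by 0.36 ± 0.19 (SE) in knockout and 0.07 ± 0.19 (SE) in wild type. The others lay lower after irradiation, 1427364_a_at by -0.35 in knockout and -0.46 in wild type, and 1437711_x_at by -0.16 in knockout and -0.18 in wild type. Odc1 therefore has no single direction after irradiation on these arrays.

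**Figure D2:**
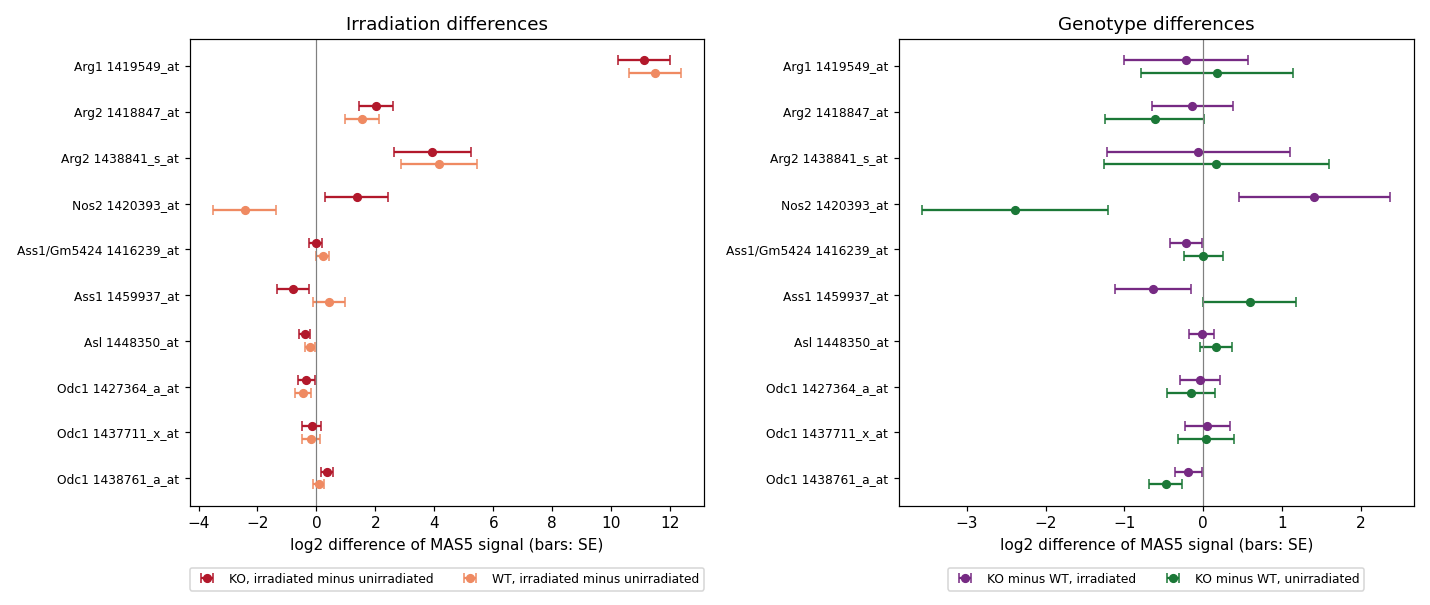
Log2 differences of the 10 probe sets (horizontal axes, bars are SE), one row per probe set. The left panel holds irradiated minus unirradiated in knockout and in wild type, and the right panel knockout minus wild type in irradiated and in unirradiated mice; Arg1 stands at 11.10 and 11.49 on the left and near 0 on the right.

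Of the 6 genes, 4 entered the fit across the whole table: Arg1, Arg2, Asl and Odc1. With sex pattern as a covariate, Arg1 differed by 10.57 in knockout and 9.88 ± 1.49 (SE) in wild type after irradiation. The covariate takes its sex term from irradiated knockout alone, the only group with both patterns. Its knockout difference therefore equals that over the male-pattern arrays alone, 10.57, by design, which is no second check.

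Whether Pdgfc loss bore on these genes is a comparison that the choice of genes did not use. None of the 4 genes tested passed it after irradiation. Knockout minus wild type, Arg1 differed by -0.22 ± 0.83 (SE; 95% interval -2.07 to 1.64; adjusted p = 0.9999 by limma), less than the spread of the 3 arrays in either group. All 3 irradiated wild-type arrays had the female pattern and 2 of the 3 irradiated knockout arrays the male one, and with sex pattern as a covariate the difference of Arg1 turned to 0.86 ± 1.13 (SE) and that of Arg2 to 0.35. Without the covariate Arg2 differed by -0.14 (95% interval -1.34 to 1.05), Asl by -0.02 (95% interval -0.38 to 0.33) and Odc1 by -0.19 (95% interval -0.57 to 0.19), each with the same adjusted p. The intervals for the arginases are wide enough to hold a difference of over 1 unit either way. Across all genes, limma called 0 of 12568 in this comparison (0%), and 500 had an unadjusted p below 0.05.

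In unirradiated mice, neither Asl nor Odc1 passed, where 1.23% of all genes did. Arg1 lay under the array median on all 4 unirradiated arrays and was in the fit only through the irradiated ones, so its values there give no test of genotype. Arg2, above the median on 1 of the 4 arrays where the filter asks for 2, also entered only through the irradiated ones. Its difference of -0.62 (95% interval -2.08 to 0.85), with overlapping groups, is likewise no test. Odc1 on its brightest probe set was 11.46 ± 0.35 (SD, n = 2) in knockout and 11.93 ± 0.27 (SD, n = 2) in wild type, a difference of -0.48 ± 0.21 (SE; adjusted p = 0.289 by limma) that its other probe sets did not share, at -0.16 and 0.03. Without the filter, Nos2 differed by -2.39 ± 1.17 (SE; adjusted p = 0.418 by limma).

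The irradiation difference in knockout minus that in wild type was called for neither Asl nor Odc1, against 0.207% of all genes. It was -0.18 for Asl (adjusted p = 0.84 by limma) and 0.29 for Odc1 (adjusted p = 0.748 by limma). For Arg1 it rests on the dim unirradiated signals and is not read as a test. For Nos2, fitted without the filter, it was 3.79 ± 1.51 (SE; adjusted p = 0.508), the value furthest from 0 of the 6 genes. The comparisons share arrays, so these values are not independent of those above.

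Arg1 is made by several cell types, and the marker lists of some of them moved with irradiation as it did. Of 8 macrophage markers tested, 7 rose in knockout, where 23.5% of all genes were called, and 7 in wild type, where 24.1% were. Their mean signal per array was 9.79 to 10.29 in irradiated knockout, 10.44 to 10.79 in irradiated wild type, 7.29 to 7.72 in unirradiated knockout and 8.04 to 8.16 in unirradiated wild type. Of these markers, Cd68, Itgam, Fcgr1 and Cx3cr1 passed the filter only through irradiated arrays, where they were high. The calls of those genes are not read as a test. All 5 markers of alternatively activated macrophages that were tested rose in both genotypes. Among them, Retnla, a secreted resistin-like protein, rose by 4.29 in knockout and 4.26 in wild type, Mgl2, a lectin, by 3.12 and 3.53 in the same order, and Mrc1, the mannose receptor, by 2.38 and 2.11. Mgl2, Chil3 and Cd163 lay under the array median on every unirradiated array. They were tested only through the irradiated groups, where they were high, so their calls are not read as a test. Ccl24 and Pdcd1lg2 of the same list were too dim to test. That list's mean was 7.75 to 8.81 in irradiated knockout, 8.55 to 8.86 in irradiated wild type, 4.98 to 5.47 in unirradiated knockout and 5.28 to 6.05 in unirradiated wild type.

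Squamous epithelium markers were also present on irradiated arrays. Of 10 tested, 10 rose in knockout and 8 in wild type, 100% and 80% against 23.5% and 24.1% of all genes. Their mean was 10.46 to 12.16 in irradiated knockout, 9.33 to 11.69 in irradiated wild type, 4.45 to 4.62 in unirradiated knockout and 4.31 to 5.18 in unirradiated wild type, with 8 to 10 of the 10 above the array median on irradiated arrays and 0 or 1 on unirradiated arrays. All passed the filter only through irradiated arrays, where they were high. Their counts, with or without the sex covariate, are therefore not read as a test. Of 4 neutrophil markers tested, 2 rose in knockout and 3 in wild type, 50% and 75% against 23.5% and 24.1% of all genes. The granule genes Mpo, Elane and Camp, and Cxcr2, stayed too dim to test. The 2 that rose in knockout were S100a8, by 8.44, and S100a9, by 8.19, so the list's mean rests largely on them. Csf3r was not called there (adjusted p = 0.0657 by limma), and Ngp differed by -0.62. The list's mean was 6.62 to 7.68 in irradiated knockout, 6.85 to 8.41 in irradiated wild type, 4.50 to 4.95 in unirradiated knockout and 5.13 to 5.52 in unirradiated wild type. Of 3 hepatocyte markers tested, 0 rose in knockout and 1, Cyp2e1, in wild type, 0% and 33.3% against the same shares of all genes. The liver plasma-protein genes Ahsg, Fgb and Apoh were too dim to test. The list's mean was 5.46 to 6.19 in irradiated knockout, 5.38 to 5.90 in irradiated wild type, 5.14 to 5.19 in unirradiated knockout and 4.75 to 5.24 in unirradiated wild type. Of 9 colonocyte markers, 6 fell in knockout and 7 in wild type, 66.7% and 77.8% against 23.5% and 24.1% of all genes. Striated muscle markers averaged 10.88 to 12.41 in irradiated knockout, 6.28 to 11.96 in irradiated wild type, 8.28 and 8.85 in unirradiated knockout, and 4.08 and 4.14 in unirradiated wild type. Of 7, 2 rose in knockout, Ryr1 and Myh2, and 6 in wild type, 28.6% and 85.7% against 23.5% and 24.1% of all genes. S100a9, Csf3r, Cyp2e1, Ryr1 and Myh2 passed the filter only through irradiated arrays, so their calls are not read as a test. With sex pattern as a covariate, an alternative added for these lists after seeing the data, only 16 of the 12568 genes stayed called in wild type. In that fit the macrophage markers had 7 of 8 called in knockout and 0 in wild type, with median differences of 2.53 and 2.43 in the same order, against 2.61 and 2.85 without the covariate. The squamous markers had 10 of 10 called in knockout and 1 in wild type, with medians of 6.06 and 4.53, against 6.56 and 6.21. In the same order it called 2 and 0 of 4 neutrophil, 5 and 0 of 9 colonocyte and 0 and 0 of 7 striated muscle markers. Of 5 markers of alternatively activated macrophages it called 4 and 0, and of 3 hepatocyte markers 0 and 0. The part of these cell types in the Arg1 values was not tested.

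**Figure D3:**
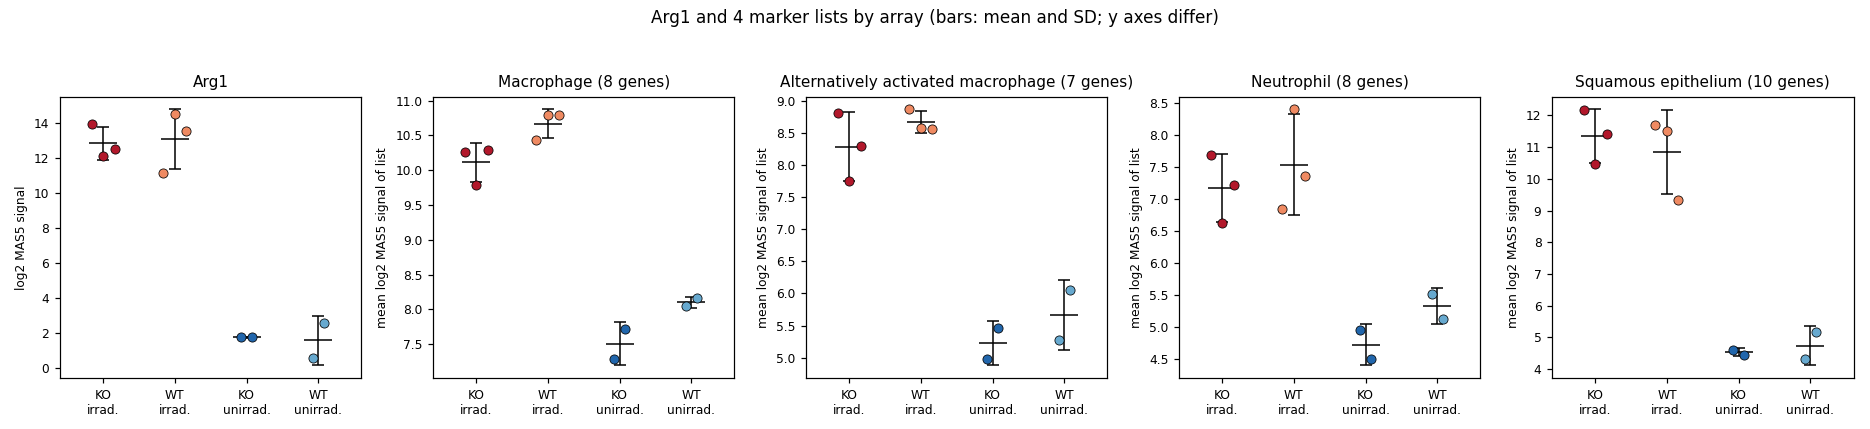
Log2 MAS5 signal of Arg1 and mean log2 MAS5 signal of 4 marker lists (vertical axes, each with its own range) by group along the horizontal axes, irradiated groups left of unirradiated ones. Points are arrays and bars give mean and SD; every irradiated array lies above every unirradiated array in all 5 panels.

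The genes whose course over the 10 arrays was most like that of Arg1 were found by the root mean square difference of centred log2 signals. S100a9, a calcium-binding protein on the neutrophil list above, came closest at 1.77, then Ppbp, a platelet chemokine, at 1.81, and Tmprss11a, a membrane protease, at 1.85, where the median over all genes was 5.61. S100a9 averaged 10.94 in irradiated knockout, 12.78 in irradiated wild type, 2.74 in unirradiated knockout and 3.40 in unirradiated wild type. Arg2 lay closest to Tmem40 at 0.36, Prdm1, a transcription factor, at 0.38, and Gjb2, a gap junction protein, at 0.39, where the median was 1.12. Tmem40 averaged 9.75 in irradiated knockout, 9.43 in irradiated wild type, 7.79 in unirradiated knockout and 7.94 in unirradiated wild type. Nos2, under the array median on all 10 arrays, lay closest to Clca4c-ps at 0.71, Trpv6, a calcium channel, at 0.75, and Fut2, a fucosyltransferase, at 0.81, where the median was 1.43. A gene without any change would score the member's own root mean square about its mean. That was 5.62 for Arg1, 1.07 for Arg2 and 1.38 for Nos2, near the medians. The likenesses are descriptions over 10 arrays that share groups and treatment.

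The genes around these enzymes were read from 6 lists of arginine transport, the mitochondrial urea cycle, other nitric oxide synthases with their cofactor, the ornithine to proline route, polyamines and creatine. Of 47 listed genes, 42 were measured and 38 tested. In knockout, 9 rose and 3 fell after irradiation, 31.6% of those tested against 23.5% of all genes, with a median difference of 0.16 against 0.01 over all genes. In wild type, 7 rose and 6 fell, 34.2% against 24.1% of all genes, with a median of -0.05 against 0.07. The lists were drawn up with earlier results known, and none was tested as a set.

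Among arginine carriers, 3 of 5 rose in knockout and 1 of 5 in wild type, where 1 fell. Called were 60% and 40% in the same order, against 23.5% and 24.1% of all genes. Slc7a2, the inducible cationic amino acid carrier, was 8.34 in irradiated knockout, 8.22 in irradiated wild type, 7.16 in unirradiated knockout and 6.44 in unirradiated wild type. It rose by 1.18 ± 0.37 (SE; adjusted p = 0.0431 by limma) in knockout and by 1.78 ± 0.37 (SE; adjusted p = 0.00864) in wild type. Slc7a6, which exchanges basic amino acids, rose by 1.10 in knockout, and its partner chain Slc3a2 rose there by 0.87. Slc7a1, the constitutive carrier, fell by 0.74 in wild type.

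Of 5 genes of the mitochondrial urea cycle, 2 fell in knockout and 2 in wild type, 40% in each against 23.5% and 24.1% of all genes. Slc25a15, the ornithine carrier of the inner membrane, fell by 0.48 in knockout and 0.74 in wild type, though its other probe set differed by 0.11 in knockout. Cps1, which starts the cycle, fell by 1.06 ± 0.28 (SE; adjusted p = 0.0228 by limma) in knockout. Nags, which makes the activator of Cps1, fell by 2.17 ± 0.59 (SE; adjusted p = 0.0267 by limma) in wild type. It was above the array median on 3 arrays, including the unirradiated wild-type ones. It thus passed the filter through the group where it was high, and its p is not read as a test.

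In the nitric oxide list, 2 of 9 rose and 1 fell in knockout, and 2 rose and 2 fell in wild type. That is 33.3% and 44.4%, against 23.5% and 24.1% of all genes. Ddah2, the paralogue of Ddah1, averaged 8.70 in irradiated knockout, 8.86 in irradiated wild type, 7.15 in unirradiated knockout and 7.29 in unirradiated wild type. It rose by 1.55 ± 0.27 (SE; adjusted p = 0.00376 by limma) in knockout and 1.56 ± 0.27 (SE; adjusted p = 0.00372) in wild type. Nos3, the endothelial synthase, rose by 1.01 in wild type, and Qdpr, which regenerates the cofactor tetrahydrobiopterin, fell by 0.59 in knockout. Ddah1 and Gch1 are given below with their genotype difference.

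Both enzymes of creatine synthesis lay higher after irradiation in both genotypes. Gatm, which takes the amidino group from arginine, averaged 9.25 in irradiated knockout, 9.54 in irradiated wild type, 7.80 in unirradiated knockout and 8.69 in unirradiated wild type, and rose by 1.46 ± 0.26 (SE; adjusted p = 0.00407 by limma) in knockout and 0.86 ± 0.26 (SE; adjusted p = 0.0371) in wild type. Gamt, which completes creatine, rose by 1.40 in knockout and 1.65 in wild type, and Slc6a8, the creatine carrier, fell by 1.06 in wild type. Gamt was above the array median on 4 arrays, all irradiated, so it was tested only through the groups where it was high. Its calls ended without any one of 6 arrays in knockout and 4 in wild type. That of Gatm in wild type ended without any one of 5. The call of Slc6a8 ended without any one of 7 arrays, and its other probe set, 1417116_at, gave -1.14 (adjusted p = 0.0335 in the fit of all probe sets) in knockout and was not called in wild type (adjusted p = 0.056). Downstream of Odc1, 2 of 11 polyamine genes rose in knockout, Smox and Srm, and 1 of 11 in wild type, Oaz2, an antizyme that binds ornithine decarboxylase. These shares, 18.2% and 9.09%, lay under the 23.5% and 24.1% of all genes called. Of 5 ornithine and proline genes, 0 were called in knockout and 1 in wild type, Oat, the ornithine aminotransferase, which rose by 0.65. Those shares, 0% and 20%, were also under the shares of all genes.

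The wild-type irradiation calls were not separable from sex. With sex pattern as a covariate, 0 of the 38 pathway genes passed in wild type and 4 in knockout, of which Ddah2 (1.56, adjusted p = 0.0144 by limma), Gatm (1.49, adjusted p = 0.0143) and Ddah1 (1.72, adjusted p = 0.0115) are among those named. That fit reads the sex term from 1 female-pattern array against 2 male-pattern ones in irradiated knockout, and it widens the wild-type errors. In wild type the difference stayed close to its size for Ddah2 (1.57 ± 0.47, SE, adjusted p = 0.222), Gamt (1.72 ± 0.76, adjusted p = 0.419) and Gatm (0.95 ± 0.45, adjusted p = 0.453), and was nearer 0 for Nos3 (0.28 ± 0.48, adjusted p = 0.869), Oat (0.32 ± 0.23, adjusted p = 0.639) and Ddah1 (-0.64 ± 0.49, adjusted p = 0.659). The count also rested on single arrays: it was between 2, without unirradiated knockout replicate 1, and 17, without irradiated knockout replicate 2, in knockout, and between 6, without irradiated wild-type replicate 2, and 16, without irradiated knockout replicate 2, in wild type. Whichever array was left out, Ddah2 and Gatm stayed called in knockout, and Ddah2 and Slc25a15 in wild type. Slc7a2 was lost in wild type without unirradiated wild-type replicate 2, Cps1 in knockout without irradiated or unirradiated knockout replicate 1, and Nags in wild type without irradiated wild-type replicate 2 or unirradiated wild-type replicate 1. Quantile normalization ended the calls of Gamt in both genotypes, of Slc7a2 and Slc25a15 in knockout, and of Nos3, Gatm, Slc6a8 and Slc7a1 in wild type, with adjusted p of 0.0504 to 0.151. With the mean of its probe sets, Slc25a15 differed by -0.63 in wild type and was not called (adjusted p = 0.135 by limma). Its knockout call ended without any one of 8 arrays, as did that of Nos3 in wild type. Calls also ended without any one of 6 arrays for Slc7a1 in wild type and of 5 for Slc7a2 in knockout. Those of Slc7a6 and Qdpr in knockout each ended without any one of 4.

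**Figure D4:**
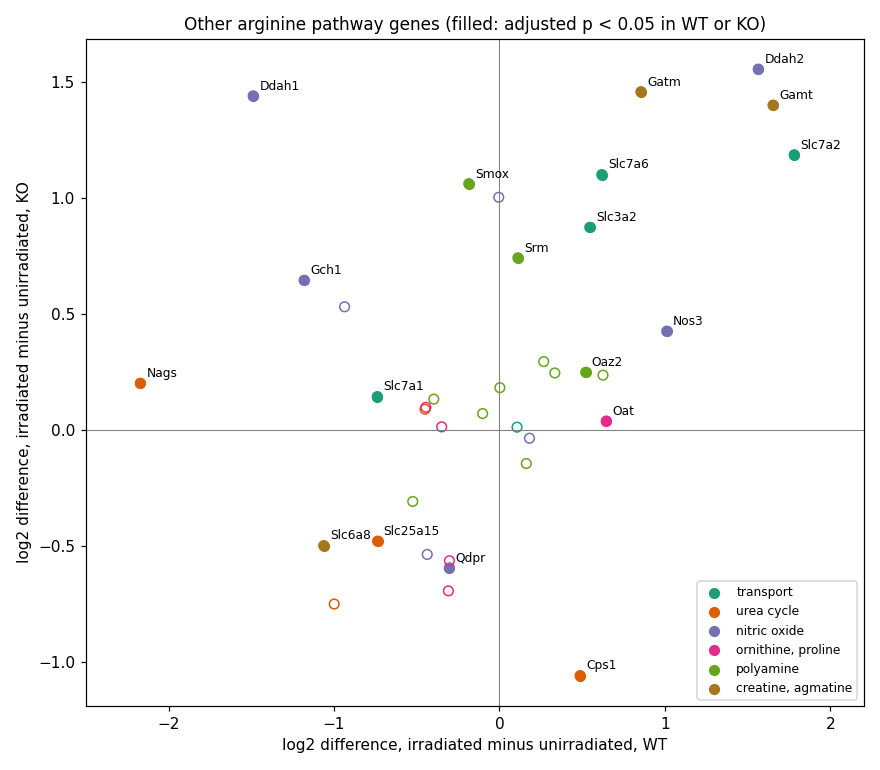
Log2 difference, irradiated minus unirradiated, of the 38 other pathway genes tested, in wild type (horizontal axis) and in knockout (vertical axis), coloured by list. Filled points passed an adjusted p of 0.05 in at least 1 genotype; Ddah2, Gamt, Gatm and Slc7a2 lie high in both, and Ddah1 lies at 1.44 in knockout and -1.49 in wild type.

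Genotype without irradiation marked 3 of the 38 pathway genes, all lower in knockout, which is 7.895% of those tested against 1.23% of all genes called and 0.804% called lower. Ddah1, the enzyme that clears methylated arginines, which inhibit nitric oxide synthases, gave 8.07 and 8.76 in unirradiated knockout and 11.59 and 11.31 in unirradiated wild type, a difference of -3.04 ± 0.38 (SE; adjusted p = 0.00641 by limma). After irradiation it gave 9.29, 9.96 and 10.31 in knockout and 10.31, 9.46 and 10.12 in wild type, which overlapped. It rose after irradiation by 1.44 ± 0.34 (SE; adjusted p = 0.0156 by limma) in knockout and fell by 1.49 ± 0.34 (SE; adjusted p = 0.0136 by limma) in wild type. The difference between those responses was 2.93 ± 0.48 (SE), with an adjusted p of 0.0592 in limma. Of its 5 probe sets, 4 ran this way, and on one of them, 1454995_at, the difference between responses was 2.49 (adjusted p = 0.0433 in a fit of all probe sets). The fifth, 1434519_at, above the array median on 4 arrays, differed by 0.85 between unirradiated knockout and wild type. These comparisons share the unirradiated arrays, so they are not separate evidence. Without unirradiated knockout replicate 1 the adjusted p of the genotype difference was 0.0557, and the knockout irradiation call was lost, as the wild-type one was without unirradiated wild-type replicate 1. With the mean of its probe sets the irradiation difference was 0.95 (adjusted p = 0.103) in knockout and -1.08 (adjusted p = 0.0732) in wild type.

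Gch1, the first enzyme of tetrahydrobiopterin synthesis, gave 9.98 and 9.93 in unirradiated knockout and 11.42 and 11.71 in unirradiated wild type, a difference of -1.61 ± 0.28 (SE; adjusted p = 0.0251 by limma). With the replicate number as a block the adjusted p was 0.0823, and with the mean of its probe sets 0.0568. After irradiation it gave 10.41, 10.65 and 10.74 in knockout and 10.91, 9.92 and 10.32 in wild type, and the irradiation difference in wild type was -1.18 ± 0.25 (SE; adjusted p = 0.00986 by limma). Smox, which oxidises spermine, gave 8.22 and 8.77 in unirradiated knockout and 9.61 and 10.34 in unirradiated wild type, a difference of -1.48 ± 0.27 (SE; adjusted p = 0.0334 by limma). With the mean of its probe sets the adjusted p was 0.091. Marker lists differed between the same arrays. Striated muscle markers averaged 8.28 and 8.85 in unirradiated knockout and 4.08 and 4.14 in unirradiated wild type, with 5 of 7 above the array median in knockout and 2 of 7 in wild type. Their median difference was 4.04 (1.78 to 7.85), and limma called 0 of 7, with an adjusted p of 0.0831 for Neb and 0.0906 for Ttn. Macrophage markers had a median difference of -0.82, with 0 of 8 called, and means of 7.29 to 7.72 in knockout and 8.04 to 8.16 in wild type. Their part in the values of Ddah1, Gch1 and Smox was not tested. For each of these 3 genes the knockout arrays lay under the wild-type arrays, as they did one way or the other for 47.8% of all genes. After irradiation no pathway gene was called by genotype, and the smallest p values were those of Cps1, at -0.80, and Slc25a15, at 0.42, both with adjusted p = 0.9999 in limma.

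**Figure D5:**
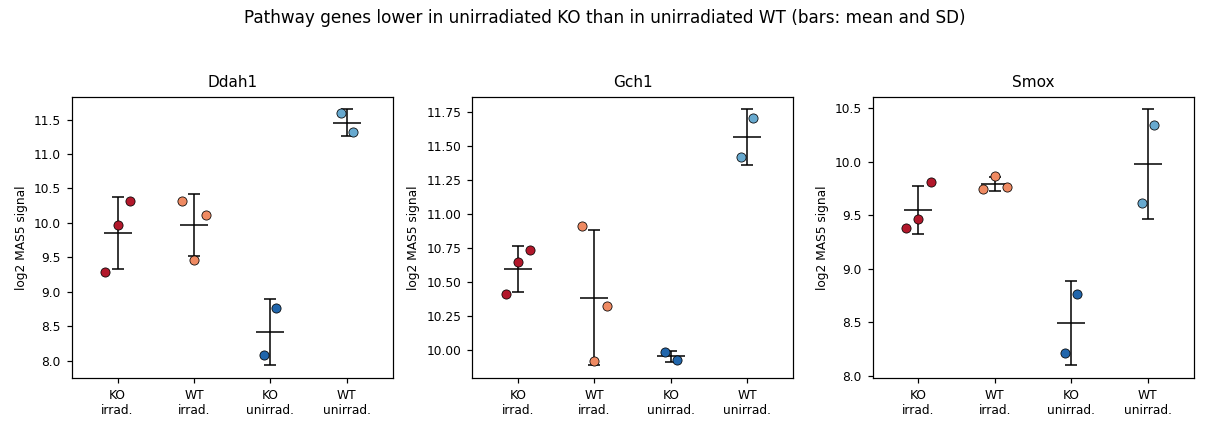
Log2 MAS5 signal (vertical axes, each with its own range) of Ddah1, Gch1 and Smox by group along the horizontal axes, with points for arrays and bars for mean and SD. Unirradiated knockout is the lowest group and unirradiated wild type the highest for all 3 genes, and the means of the irradiated groups lie between them.

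Signals that induce the 2 enzyme routes in mouse macrophages were read last. Of 5 inducers of Arg1 that were tested, 2 rose in knockout and 0 in wild type, 40% and 0% against 23.5% and 24.1% of all genes. Il4ra, the receptor chain for interleukins 4 and 13, rose by 1.42 ± 0.28 (SE; adjusted p = 0.00683 by limma) in knockout, and Cebpb, a transcription factor, by 1.32 ± 0.27 (SE; adjusted p = 0.0085). The other probe set of Cebpb, 1427844_a_at, rose in both genotypes, by 1.86 (adjusted p = 0.00344 in the fit of all probe sets) in knockout and 1.25 (adjusted p = 0.0208) in wild type. With the mean of its probe sets Il4ra differed by 1.17 (adjusted p = 0.0674) in knockout. The cytokines Il4, Il13 and Il10 themselves were too dim to test. Of 6 inducers of Nos2, 3 rose and 2 fell in knockout, and 1 rose and 1 fell in wild type. That is 83.3% and 33.3%, against 23.5% and 24.1% of all genes. Il1b, an inflammatory cytokine, rose by 3.64 ± 0.61 (SE; adjusted p = 0.00343 by limma) in knockout and 3.96 ± 0.61 (SE; adjusted p = 0.00237) in wild type. Tnf averaged 7.68 in irradiated knockout, 7.48 in irradiated wild type, 4.81 in unirradiated knockout and 7.18 in unirradiated wild type. It rose by 2.88 ± 0.51 (SE; adjusted p = 0.00415 by limma) in knockout, where both unirradiated arrays put it under their median. In wild type Tnf differed by 0.30 (adjusted p = 0.698 by limma). Its irradiation responses differed between genotypes by 2.57, which was not called (adjusted p = 0.283). The receptor of interferon gamma fell in part: Ifngr2 by 0.80 in knockout and Ifngr1 by 0.55 in knockout and 0.60 in wild type, while Ifng itself was too dim to test. The other probe set of Ifngr2 differed by -0.26 in knockout. Leaving out single arrays did not end the calls of Il1b in either genotype, nor those of Tnf and Ifngr2 in knockout, but ended Il4ra without unirradiated knockout replicate 2 and Cebpb without unirradiated knockout replicate 1 or 2. The call of Ifngr1 ended without any one of 7 arrays in knockout and of 4 in wild type, and also without the trend and with the replicate block, and in wild type with quantile normalization. Irf1, a transcription factor of the interferon response, was among the 3 that rose in knockout, by 0.78, and its call ended without any one of 8 arrays. With sex pattern as a covariate Il1b differed by 3.73 ± 1.08 (SE; adjusted p = 0.201) in wild type.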

How the data were processed

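Total RNA (6 µg, Trizol) from 10 samples was labelled with biotin and hybridised to Affymetrix arrays, per the labels' protocols. The authors computed MAS5 signals, per the submitters' processing notes, and deposited them on the log2 scale, as judged from the values: their linear mean, trimmed by 2%, was 500 on every array. No version, detection calls or array dates were given in the sources used here.

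Values were used as deposited. Of 45101 probe sets, 34945 had 1 annotated gene, 932 several and 9160 none. Symbols of 34741 probe sets were updated by gene ID. A gene was read from its brightest probe set with 1 gene and was tested where 2 or more arrays put it above their median. Differences were fitted over all 10 arrays with limma (version 3.58.1, under R 4.3.3), as group means with 6 residual degrees of freedom and a trended variance prior. P-values were adjusted by Benjamini-Hochberg over all 12568 genes, with a threshold of 0.05. The fit was tested on simulated data.

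The members and the gene lists were chosen with earlier results of these data known. Named were all 6 members, up to 6 pathway genes with the largest rise and fall past the threshold in a comparison (or 2 by smallest p where none passed), and for each member whose group means span at least 1 unit the 3 most alike genes. Slc3a2, Smox, Srm and Oaz2 after irradiation, and the markers Ttn and Neb, were named to complete small counts or to give marker levels, after their values were seen. Alternatives were quantile normalization, a pseudocount of 16, no filter, no trend, averaged probe sets per gene, other probe sets of the members, the replicate number as a block, sex pattern as a covariate, arrays of 1 sex pattern only, and leaving out each array; where that left 1 array in a group, its spread was taken from the other groups.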

Additional observations from a re-analysis of the deposited data

Results flagged for a closer look

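The irradiation response of Ddah1, which clears methylated arginines, differed between genotypes on 1 of its probe sets. On 1454995_at the response in knockout minus that in wild type was 2.49 on the log2 scale (adjusted p = 0.0433 by limma, in a fit of all probe sets), from means of 9.39 in irradiated knockout, 9.52 in irradiated wild type, 8.17 in unirradiated knockout and 10.79 in unirradiated wild type. On its brightest probe set, 1429298_at, the value was 2.93 with an adjusted p of 0.0516 in the same fit.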

How the results depend on the processing

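With sex pattern as a covariate, genes called after irradiation numbered 1706 in knockout, against 2957 without it, and 16 in wild type, against 3028; members past the threshold, a count that follows from their choice and is no test, were 1 in knockout and 0 in wild type, pathway genes 4 and 0 in the same order, and genes whose response differed between genotypes 4, against 26. On male-pattern arrays alone, 1352 genes, 1 member and 4 pathway genes were called in knockout. Replicate numbers do not pair the samples: deviations of same-numbered arrays correlated at -0.20 to 0.16, others at -0.25 to 0.24, and 3 of 10 arrays correlated best with their own number. With the replicate block, 1995 genes and 6 pathway genes were called in wild type, 70 genes without irradiation by genotype, against 154, and 3 for the difference of responses. Without the trend the last count was 10, and pathway genes called without irradiation were 1, as with the mean of probe sets, which called 2 members in wild type. Uncalled differences that turned sign were, for genotype after irradiation, Arg1 (0.86) and Arg2 (0.35) with the sex covariate and on female-pattern arrays alone, and Odc1 (0.051) on 1437711_x_at; without irradiation, Arg1 (-0.018) with the pseudocount, Arg2 (0.16) on 1438841_s_at and Odc1 (0.031) on 1437711_x_at; and for the difference of responses, Arg1 (0.69) with the sex covariate and Arg2 (-0.23) on 1438841_s_at. The sex covariate and the arrays of 1 sex pattern give the same differences by design, so they are not separate checks. Causes were not tested. Leaving out each array in turn gave 1189 to 3596 genes, 1 to 2 members and 2 to 17 pathway genes in knockout, 1323 to 3469 genes, 1 to 2 members and 6 to 16 pathway genes in wild type, 0 to 3 genes for genotype after irradiation, 41 to 255 genes and 0 to 4 pathway genes without irradiation, and 14 to 35 genes and 0 to 1 pathway genes for the difference of responses. Over the same fits the genotype difference after irradiation ran from -1.17 to 0.50 for Arg1, -0.60 to 0.32 for Arg2 and -0.10 to 0.13 for Asl; without irradiation from -0.83 to 1.18 for Arg1 and -1.23 to 0.0016 for Arg2; and the difference of responses from -1.39 to 0.62 for Arg1 and -0.14 to 1.09 for Arg2. Of the named calls, 5 of 16 in knockout, 3 of 14 in wild type and 0 of 3 without irradiation held with every array left out. Nos2, Ass1, and Arg1 and Arg2 in unirradiated mice, are limited by signals mostly or wholly under the array median.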
